A study of Mus musculus with 24 samples.

Results

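The facilitated hexose transporters of the Slc2a family (the GLUT proteins) were followed at the RNA level in whole mouse liver across 5 diets. The members were 8 genes, Slc2a1, Slc2a2, Slc2a3, Slc2a4, Slc2a6, Slc2a8, Slc2a9 and Slc2a10, taken by gene symbol from a table of 34436 symbols. The family was chosen by its Slc2a6 values, which stood out with cholesterol plus cholic acid, so Slc2a6 is given as a description with no test. The table also holds 4 further Slc2a genes (Slc2a5, Slc2a7, Slc2a12 and Slc2a13), which are described beside the members.

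All mice were wild-type C57BL/6 and began their diet at 8 to 10 weeks of age, staying on it for 8 weeks. The control was normal chow (NC, 4 libraries). A sucrose-rich diet was fed without cholesterol (HS, 5) or with 2% of it (HS_Chol, 3), and cholic acid, a bile acid, likewise without (CA, 4) or with 2% cholesterol (Chol_CA, 4). Sex, housing and the dose of cholic acid are not given in the sources used here, and 1 of the labelled HS samples carries a chow diet label. The labels number the livers but do not state separate animals, so p-values measure the spread between these samples. Libraries are named by diet and by the table's number, which starts at 0.

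GLUT proteins carry hexoses across membranes down their concentration gradient, without using energy. In hepatocytes the bulk of this traffic, uptake after a meal and release during fasting, is credited to GLUT2, the product of Slc2a2. GLUT1 and GLUT3 have a higher affinity for glucose and serve many other cells, GLUT4 is the insulin-responsive carrier of muscle and fat, GLUT9 carries urate, and GLUT6 and GLUT8 reside mainly on membranes inside the cell.

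Sequence around the start sites shows how differently these genes are built. Promoters of 6 members were found in RefSeq (GRCm38.p6), and 3 are printed here because they belong to the most abundant member in liver, to the member that chose the family and to the general glucose carrier. Each runs 5′ to 3′ on the gene's strand from 250 bases before the start to 50 after it. Capitals mark matches, on either strand, to the CCAAT box, to the GC box GGGCGG, to the TATA box TATAAA and to the hypoxia core ACGTG.

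Slc2a2 (chr3:28697653-28697952, plus strand): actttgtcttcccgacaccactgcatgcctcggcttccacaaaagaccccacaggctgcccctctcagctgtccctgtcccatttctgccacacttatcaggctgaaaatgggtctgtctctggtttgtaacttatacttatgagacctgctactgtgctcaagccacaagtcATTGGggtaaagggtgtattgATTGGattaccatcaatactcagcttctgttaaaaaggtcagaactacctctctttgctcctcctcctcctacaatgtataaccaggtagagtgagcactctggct

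Slc2a6 (chr2:27027949-27028248, minus strand): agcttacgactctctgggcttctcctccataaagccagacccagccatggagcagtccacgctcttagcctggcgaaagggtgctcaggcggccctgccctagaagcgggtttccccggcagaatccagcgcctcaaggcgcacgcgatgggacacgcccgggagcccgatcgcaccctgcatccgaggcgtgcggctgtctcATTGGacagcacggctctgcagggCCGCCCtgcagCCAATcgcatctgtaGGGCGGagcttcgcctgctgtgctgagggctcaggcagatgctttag

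Slc2a1 (chr4:119108495-119108794, plus strand): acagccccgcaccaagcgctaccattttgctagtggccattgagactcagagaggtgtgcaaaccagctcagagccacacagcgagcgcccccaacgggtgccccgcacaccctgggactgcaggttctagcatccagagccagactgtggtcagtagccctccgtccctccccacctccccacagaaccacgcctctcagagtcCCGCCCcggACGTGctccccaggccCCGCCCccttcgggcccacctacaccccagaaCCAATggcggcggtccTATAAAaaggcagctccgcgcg

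The Slc2a2 promoter had a G+C content of 48% with 2 CpG dinucleotides and held no GC box. The Slc2a6 promoter had 64.7% and 22 CpG, and the Slc2a1 promoter 65.3% and 18 CpG, against a median of 52.7% over 32851 promoters. Slc2a6 and Slc2a1 each held 2 GC boxes, a motif found in 35.7% of all promoters of this length. Slc2a1 alone of the 3 held TATAAA (13.6% of promoters) and ACGTG (19.6%). Its TATAAA began at base 29 after the annotated start, not before it. The CCAAT motif matched 2 times in Slc2a2, 2 times in Slc2a6 and 1 time in Slc2a1, and 37.4% of promoters had a match. The AP-1 motif TGANTCA (7.81% of promoters), the ETS core GAGGAA (28.3%), the E-box CACGTG (7.15%) and the FOXA motif TGTTTAC (3.65%) did not occur in these 3 windows, nor did the searched motifs of NF-kB, HNF1 and HNF4.

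Total reads per library ran from 6110484 to 10244277, and summed hepatocyte markers (10 of 10 genes found, among them Alb and Ttr) from 70801 to 137103 reads per 1000000 (CPM). Long transcripts took fewer reads than average in 8 libraries (Chol_CA_0, Chol_CA_1, CA_0, HS_Chol_0, HS_2, HS_1, HS_0 and NC_3), here called a negative length trend, and more than average in the other 12, a positive trend. Light-strand mitochondrial tRNA reads, a sign of reads counted on the wrong strand, reached 673 to 900 per 1000000 heavy-strand mRNA reads in HS_Chol and at most 83.4 elsewhere. Of the members only Slc2a1 shares exon sequence with a gene on the opposite strand, 105 bases with Gm12868, which had at most 2 reads in any library.

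Slc2a2 carried most of the family's level in every diet. To compare genes, CPM was divided by the length of the gene's exons in kilobases (RPKM). In NC, Slc2a2 stood at 49.2 ± 8.06 RPKM (SD, n = 4), followed by Slc2a9 at 6.57 ± 1.21, Slc2a8 at 4.99 ± 0.31 and Slc2a1 at 4.75 ± 1.14. The ranges of these last 3 overlapped over the 4 chow libraries, while Slc2a2 lay above all of them. Slc2a4, Slc2a10 and Slc2a3 stood at 0.079, 0.056 and 0.034 RPKM in NC with overlapping ranges, and Slc2a6 had no read.

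Over all 12 Slc2a genes Slc2a2 made up 72.1% ± 2.59 of the summed level per length in NC, 70.1% ± 1.58 in HS (n = 5), 65.3% ± 4.17 in HS_Chol (n = 3), 71.3% ± 9.06 in CA and 57.3% ± 16.3 in Chol_CA. In Chol_CA the share ran from 34.9% to 70.7% between libraries, which overlaps every other diet. Slc2a6 rose to the fifth place of the members there, at 2.30 ± 2.30 RPKM, and its range overlapped those of its neighbours Slc2a8 (3.72 ± 0.38) and Slc2a4 (0.35 ± 0.15). Slc2a1 stood second in Chol_CA at 5.94 ± 1.99 RPKM, without parting from Slc2a9 at 4.67 ± 0.73. With the length of the longest transcript instead, Slc2a9 stood at 6.59 and Slc2a1 at 6.38, which turns their order.

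**Figure D1:**
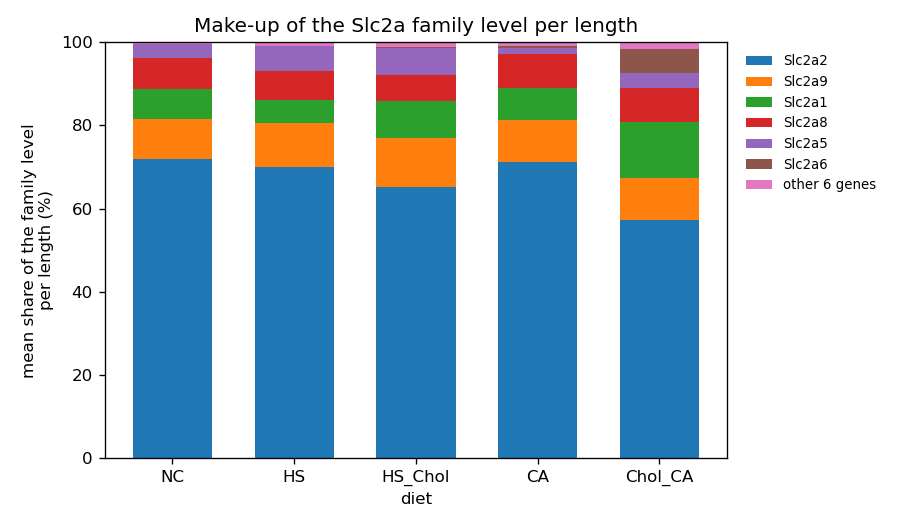
Mean share (%) of each Slc2a gene in the summed level per exon length (RPKM) of all 12 Slc2a genes, for the 5 diets on the horizontal axis. Slc2a2 fills 72.1% of the bar in NC and 57.3% in Chol_CA, where Slc2a6 becomes visible.

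Slc2a6 encodes GLUT6, a carrier known from spleen and leukocytes that is held mostly on lysosomal membranes. Its gene lies on chromosome 2 (27021363 to 27027998, minus strand, GRCm38). It had no read in any of the 4 NC libraries, which allows up to 0.104 CPM (3 reads over the group). In HS it had between 1 and 3 reads in each of 5 libraries, in HS_Chol 5, 0 and 1 reads, and in CA 13, 9, 2 and 6 reads. In Chol_CA it had 69, 149, 23 and 10 reads (Chol_CA_0 to Chol_CA_3), or 9.14, 17.1, 2.25 and 1.08 CPM. Reads of Slc2a6 were therefore not limited to Chol_CA, although 84.5% of its 297 reads came from there.

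The lowest Chol_CA library (1.08 CPM) lay below the highest CA library (CA_0, 1.53 CPM), so those groups overlapped. Pooled over libraries, the level was 0.298 CPM in HS (95% exact Poisson interval 0.143 to 0.548), 0.316 in HS_Chol (0.116 to 0.688), 0.821 in CA (0.554 to 1.17) and 7.02 in Chol_CA (6.18 to 7.95). These intervals and the floor cover counting error only, and the libraries of Chol_CA differed by far more. The Chol_CA mean of 7.39 ± 7.37 CPM (SD, n = 4) was at least 71.3-fold higher than the NC floor and 8.63 times the CA mean of 0.856 ± 0.570.

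In some diets library traits moved with these values. Chol_CA_0 and Chol_CA_1, both with a negative length trend, held 86.9% of the Slc2a6 reads of their diet. CA_0 and HS_Chol_0, the libraries of CA and HS_Chol with a negative trend, had the highest value of their diets. NC_3, also negative, had no read, like the rest of NC. In HS the negative-trend libraries had 1, 3 and 1 reads and the others 3 and 2. With only libraries of a positive trend (2 Chol_CA, 3 CA) the ratio of means between Chol_CA and CA fell to 2.64. Cell markers moved with Slc2a6 in part. Summed Kupffer cell markers (liver macrophages, 9 of 10 genes found) ran from 101 to 159 CPM in NC and 123 to 322 in HS. They reached 230 to 600 CPM in HS_Chol, 244 to 760 in CA and 910 to 2557 in Chol_CA. HS_Chol thus overlapped CA, and HS_Chol_1, at 350 CPM of these markers, had no Slc2a6 read.

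In the 4 Chol_CA libraries, in the order 0 to 3, the summed Kupffer cell markers stood at 1625, 2557, 980 and 910 CPM. Markers of lipid-associated macrophages (11 of 11 found, such as Trem2 and Gpnmb) summed to 782, 801, 482 and 276 CPM, and neutrophil markers (10 of 10 found, such as S100a8) to 24.4, 82.3, 21.8 and 11.4 CPM. All 3 sums had the order of Slc2a6, with Chol_CA_1 highest and Chol_CA_3 lowest. Cholangiocyte markers (bile duct cells; 56.6 to 100.3 CPM in NC) had this order too, at 349.7, 366, 232 and 124 CPM. That sum is not separate from the lipid-associated macrophage sum, because Spp1 is in both lists. Spp1 averaged 236 ± 109 CPM in Chol_CA, most of the cholangiocyte sum. Markers of T and NK cells, at 26.1, 62.4, 11.7 and 16.5 CPM, did not have this order. Nor did the sums of B cell, platelet, erythroid, endothelial, stellate cell, adipocyte, striated muscle or hepatocyte markers. The length trend of these libraries (correlations −0.126, −0.303, 0.283 and 0.301) ranked them the same way as Slc2a6, so marker order and length trend cannot be told apart here. Between diets the lipid-associated macrophage sum was not ordered like Slc2a6, at 180 to 258 CPM in HS and 110 to 210 in CA. In NC the neutrophil markers Ly6g, Cxcr2, Retnlg and Mmp8 had no read and the other neutrophil markers summed to between 0.143 and 2.27 CPM. The part of these cells in the Slc2a6 level was not tested, and in whole liver more cells of a type cannot be told apart from more RNA per cell.

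**Figure D2:**
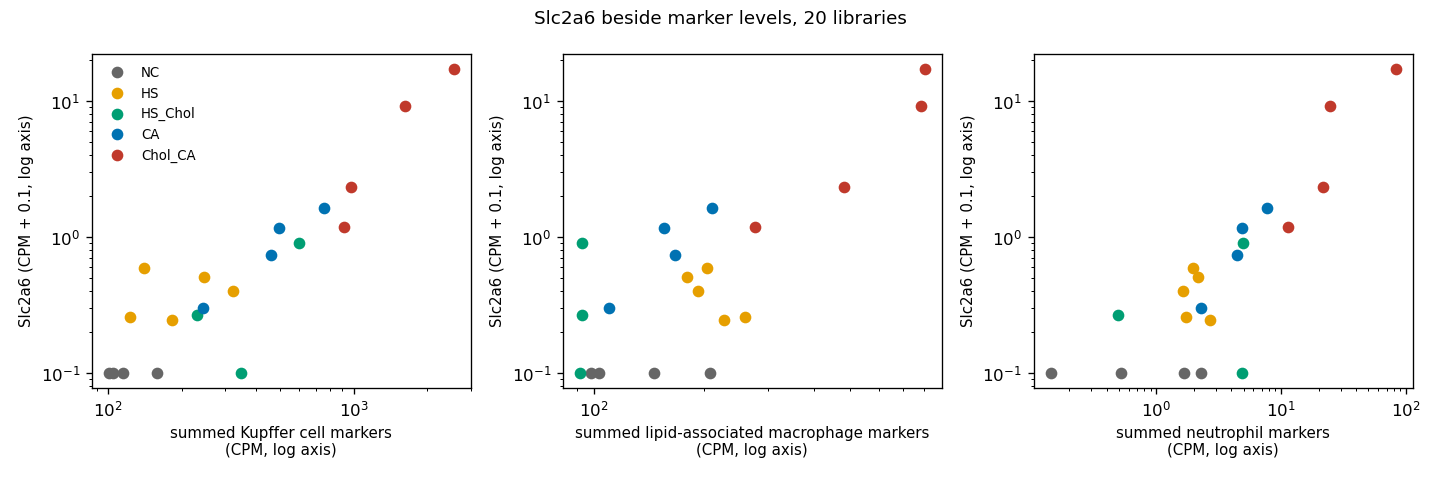
Slc2a6 level (CPM plus 0.1, log axis) against the summed level (CPM, log axis) of Kupffer cell, lipid-associated macrophage and neutrophil markers, 1 point per library and colours for diets. Of the 4 Chol_CA points Chol_CA_1 is the highest at 17.1 CPM, while Chol_CA_3 (1.08 CPM) lies below CA_0 (1.53 CPM). The 4 NC points and HS_Chol_1 lie at the bottom with no read.

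The genes whose levels ran most like Slc2a6 over the 20 libraries, by Pearson correlation of log2(CPM + 1) among 11785 genes, were Arl5c (r = 0.978), Matk (0.976), Cyp4f18 (0.973), Timp1 (0.973) and Alox5ap (0.972). Matk encodes a kinase of blood cells, Timp1 an inhibitor of matrix metalloproteinases, and Alox5ap the protein that 5-lipoxygenase needs for leukotriene synthesis in leukocytes. In the Chol_CA libraries Cyp4f18 stood at 8.88, 24.4, 2.64 and 1.95 CPM and Arl5c at 7.42, 17.4, 2.15 and 0.974 CPM. Both had the order of the Slc2a6 libraries, but they were picked for their likeness over libraries that include these, so nothing is read from it. The points share their libraries and diets, and the correlations are a description.

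Slc2a2 encodes GLUT2, the main glucose carrier of the hepatocyte membrane (chromosome 3, 28697903 to 28731359, plus strand). It stood at 318, 292, 306 and 215 CPM in the 4 NC libraries and at 144, 74.2, 208 and 213 CPM in Chol_CA. Every Chol_CA library lay below every NC library, though Chol_CA_3 and NC_3 differed by little. Slc2a2 was lower in Chol_CA than in NC by a log2 fold change of −0.83 ± 0.29 (SE; edgeR adjusted p = 0.0463). Summed hepatocyte markers moved the same way, from 128700 to 137103 CPM in NC down to 70801 to 81786 in Chol_CA. Much of that sum is Alb, the albumin gene, at 90972 ± 3715 CPM in NC and 40655 ± 8146 in Chol_CA (−1.16 ± 0.16). Of the 10 markers 3 were called lower, where 9.35% of all genes were, and their median log2 fold change was −0.15. The marker sum also lay wholly below NC in HS (103019 to 121114 CPM), HS_Chol (87821 to 99519) and CA (93275 to 122055). Slc2a2 was not called lower in any of these diets, and in CA against NC its log2 fold change was −0.06 ± 0.29 (edgeR adjusted p = 0.939). The part of these markers in the Slc2a2 level was not tested.

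The CA libraries stood at 114 (CA_0), 280, 345 and 344 CPM, so that CA_0 alone fell within the Chol_CA range. In HS the range was 234 to 267 CPM and in HS_Chol 187 to 248 CPM. Slc2a2 did not pass in any comparison other than Chol_CA against NC, and its log2 fold change of Chol_CA against CA was −0.76 ± 0.29 (adjusted p = 0.0725).

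In NC, CA, HS_Chol and Chol_CA the lowest Slc2a2 value came from a library whose length trend was negative. In HS it came from HS_4, a positive-trend library, and the trend of HS_Chol_0 was weak (correlation −0.058). With positive-trend libraries alone the fall in Chol_CA was smaller and passed, at −0.55 against NC (adjusted p = 0.00393) and −0.63 against CA (adjusted p = 0.00194). Against CA it also passed with DESeq2 (adjusted p = 0.0411), with a stricter filter (0.0482), without CA_0 (0.00477) and without Chol_CA_3 (0.0295), out of a range of 0.00194 to 0.254. The call against NC did not pass without NC_0, NC_1, NC_2, Chol_CA_0 or Chol_CA_1 (adjusted p 0.076 to 0.14) or in a fit of these 2 diets alone (adjusted p = 0.106), and over all alternatives the log2 fold change ran from −1.05 to −0.55. The genes that ran most like Slc2a2 were Rnf13 (r = 0.937), Zadh2 (0.935), Dhdh (0.921), Dpp4 (0.92) and Slc25a16 (0.92).

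Slc2a9 encodes GLUT9, the carrier that brings urate into the hepatocyte for breakdown (chromosome 5, 38349273 to 38503143, minus strand). Its mean was 33.4 ± 6.14 CPM in NC, 33.5 ± 3.10 in HS, 33.4 ± 4.97 in HS_Chol, 32.1 ± 9.69 in CA and 23.8 ± 3.70 in Chol_CA. The Chol_CA libraries stood at 23.7, 18.6, 26.9 and 25.9 CPM, and NC_3, at 26.1 CPM, lay within their range. The log2 fold changes of −0.49 ± 0.19 against NC (adjusted p = 0.0688) and −0.43 ± 0.19 against CA (adjusted p = 0.117) did not pass. Against NC the value passed with DESeq2 (adjusted p = 0.0464), with a stricter filter (adjusted p = 0.0364), without NC_3 (adjusted p = 0.0325) and without Chol_CA_3 (adjusted p = 0.0445), and over its alternatives the adjusted p ran from 0.0325 to 0.229. Against CA it passed only without CA_0 (adjusted p = 0.0127).

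**Figure D3:**
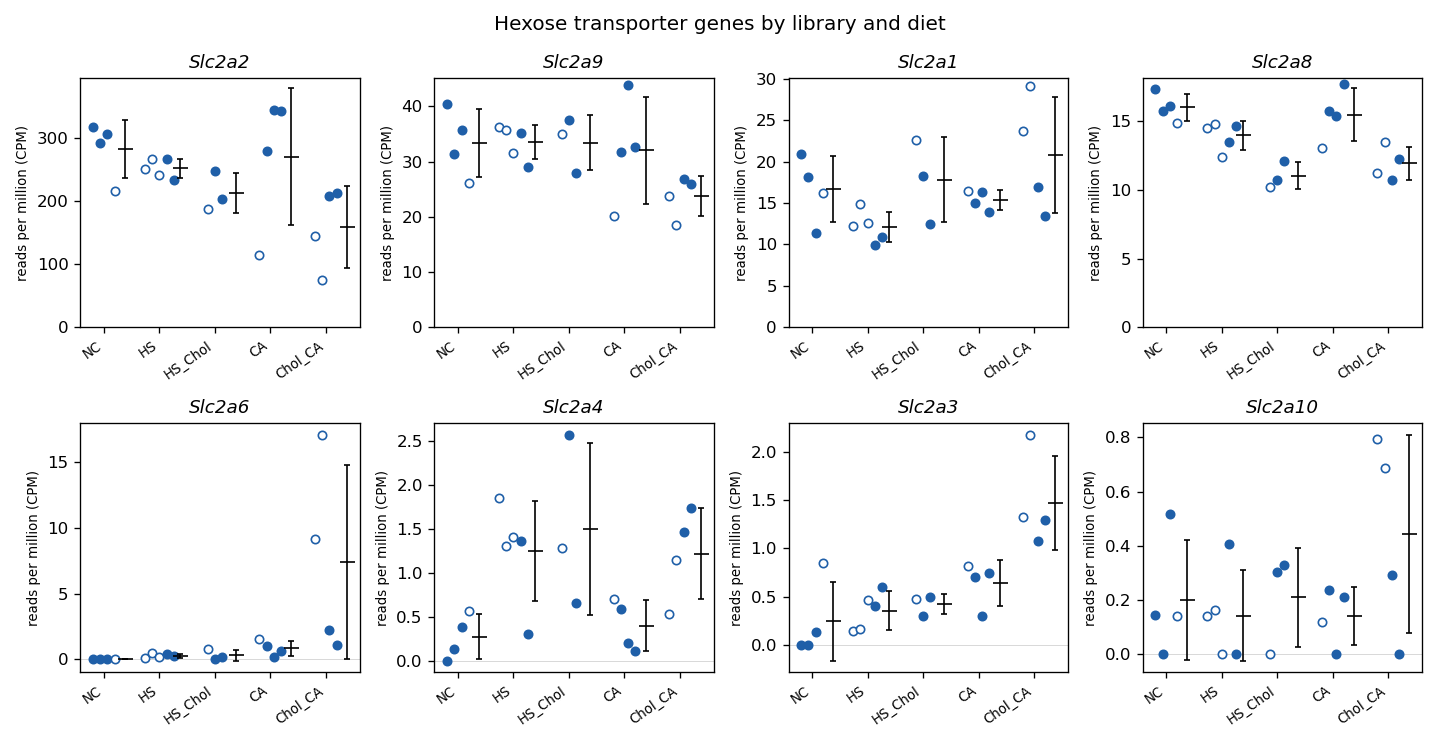
Level (CPM, linear axes that differ between panels) of the 8 members in each of 20 libraries by diet, with the mean and SD beside the points. Open circles mark libraries with a negative length trend. They hold the lowest Slc2a2 value in NC, HS_Chol, CA and Chol_CA, though not in HS, and the 2 highest Slc2a6 values, 9.14 and 17.1 CPM.

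Slc2a8 encodes GLUT8, an intracellular carrier of glucose and trehalose (chromosome 2, 32972990 to 32982083, minus strand). The NC libraries stood at 17.3, 15.8, 16.1 and 14.9 CPM, those of HS_Chol at 10.2, 10.7 and 12.1 CPM and those of Chol_CA at 11.3, 13.5, 10.7 and 12.2 CPM. Both cholesterol diets lay wholly below chow. Slc2a8 was lower than in NC by a log2 fold change of −0.54 ± 0.14 in HS_Chol (adjusted p = 0.0396) and −0.42 ± 0.12 in Chol_CA (adjusted p = 0.0143).

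The CA libraries held Slc2a8 at a mean of 15.5 ± 1.93 CPM, with CA_0 the lowest and CA_3 the highest at 17.7, and Chol_CA was lower than CA by −0.38 ± 0.12 (adjusted p = 0.0328). HS_Chol stood below all 5 HS libraries (12.4 to 14.8 CPM), but the log2 fold change of −0.34 ± 0.13 did not pass (adjusted p = 0.242). The cholesterol interaction, the difference between the effect of cholesterol with cholic acid and with sucrose, was −0.03 ± 0.18 for Slc2a8 (adjusted p = 0.929). HS_Chol and Chol_CA were both compared with the same NC libraries.

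The 3 calls of Slc2a8 were lost in several alternatives. With no filter on low counts HS_Chol against NC (adjusted p = 0.0822) and Chol_CA against CA (0.061) did not pass, and with positive-trend libraries alone HS_Chol against NC did not (0.0626). Against NC, HS_Chol did not pass when HS_Chol_0, HS_Chol_1, NC_0, NC_1 or NC_2 was left out (adjusted p 0.0794 to 0.255), and Chol_CA not without NC_0 or Chol_CA_2 (0.064 and 0.0626). Against CA, Chol_CA did not pass without CA_1, CA_2, CA_3, Chol_CA_0 or Chol_CA_2 (0.0545 to 0.116), and none of the 3 passed in a fit of the diets compared alone (0.0841 to 0.142). Log2 fold changes over all alternatives spanned −0.61 to −0.48 in HS_Chol and −0.53 to −0.35 in Chol_CA, both against NC, and −0.52 to −0.31 between Chol_CA and CA. Ppp1r15a (r = 0.782), Prss8 (0.761), Cars (0.746), F10 (0.736) and Atf4 (0.736) ran most like Slc2a8, among them Atf4, the transcription factor of the integrated stress response, and Ppp1r15a, which encodes the phosphatase subunit GADD34 of the same pathway.

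Slc2a1 encodes GLUT1, the general glucose carrier of proliferating cells, red cell precursors and endothelium (chromosome 4, 119108711 to 119137983, plus strand). The NC libraries stood at 20.9, 18.1, 11.4 and 16.2 CPM, the HS libraries between 9.93 and 14.8, the CA libraries between 13.9 and 16.5, and the HS_Chol libraries at 22.7, 18.3 and 12.5 CPM. In Chol_CA the values were 23.7, 29.1, 17.0 and 13.4 CPM, again highest in Chol_CA_0 and Chol_CA_1. All these ranges overlapped NC. No comparison passed (edgeR adjusted p 0.195 to 0.959 over 7 comparisons). The log2 fold change of Chol_CA against NC was 0.32 ± 0.23 (adjusted p = 0.343), and with positive-trend libraries alone it turned to −0.15 (adjusted p = 0.68).

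Slc2a3 encodes GLUT3, a high-affinity carrier of neurons, platelets and white blood cells (chromosome 6, 122727809 to 122801640, minus strand). Its reads were few: 0, 0, 1 and 6 in NC and 10, 19, 11 and 12 in Chol_CA. The groups did not overlap in CPM, with 0.852 the highest of NC (NC_3) and 1.07 the lowest of Chol_CA. Slc2a3 was higher in Chol_CA than in NC by 2.52 ± 0.64 on the log2 scale (adjusted p = 0.00603), or, without NC_3, by 4.61 (adjusted p = 0.000124). The gene reached the minimum for testing only through Chol_CA_0, Chol_CA_1 and Chol_CA_3, its high diet, so it had to differ to be tested. With no filter on low counts the value was 2.46 (adjusted p = 0.00882).

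CA libraries had between 3 and 7 reads of Slc2a3 (0.296 to 0.823 CPM). Their log2 fold change of 1.33 ± 0.70 against NC did not pass (adjusted p = 0.286), but passed without NC_3 at 3.39 (adjusted p = 0.0118). The genes that ran most like it were Cd38 (r = 0.93), Fam105a (0.927), Ifi204 (0.927), Tmem106a (0.927) and Sh3kbp1 (0.925). Cd38 is a surface enzyme of leukocytes and Ifi204 an interferon-inducible gene of myeloid cells. Summed platelet markers ran from 4.54 to 8.66 CPM in NC and 8.44 to 17.4 in Chol_CA, and the macrophage and neutrophil sums given for Slc2a6 rose between the same diets; their part in the Slc2a3 level was not tested.

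Slc2a4 encodes GLUT4, the insulin-responsive carrier (chromosome 11, 69942539 to 69948188, minus strand). It had 0, 1, 3 and 4 reads in NC, 13, 8, 9, 10 and 2 in HS, 8, 17 and 4 in HS_Chol, 6, 5, 2 and 1 in CA and 4, 10, 15 and 16 in Chol_CA. Mean levels were 0.274 ± 0.254 CPM in NC, 1.25 ± 0.57 in HS, 1.5 ± 0.98 in HS_Chol, 0.399 ± 0.292 in CA and 1.22 ± 0.52 in Chol_CA. Slc2a4 was higher in Chol_CA than in NC by 2.10 ± 0.69 on the log2 scale (adjusted p = 0.0302), although Chol_CA_0 (0.53 CPM) lay within the NC range. The gene reached the minimum for testing only through libraries of HS, HS_Chol and Chol_CA, its higher diets. With only NC and Chol_CA compared it could not be tested. With no filter on low counts the value was 2.04 (adjusted p = 0.0391).

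HS and HS_Chol showed differences of like size from NC that did not pass, at 2.11 ± 0.68 (adjusted p = 0.201) and 2.39 ± 0.73 (adjusted p = 0.102), the latter passing with DESeq2 (adjusted p = 0.0462; 0.0462 to 0.511 over its alternatives). Chol_CA against CA gave 1.63 ± 0.62 (adjusted p = 0.069) and passed without CA_0 (adjusted p = 0.0399) and with positive-trend libraries alone (2.40, adjusted p = 0.031). The call of Chol_CA against NC was lost without NC_0, NC_1, Chol_CA_2 or Chol_CA_3 (adjusted p 0.0595 to 0.0859).

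GLUT4 is a fat and muscle protein, so markers of both tissues were read beside it. Striated muscle markers (7 of 7 found) summed to at most 1.20 CPM in any library, with Myh1 and Tnnc2 at 0 in all 5 diets. The adipocyte markers Plin1, Lep and Retn had no read in NC, HS, CA and Chol_CA. In HS_Chol the adipocyte sum reached 140 CPM (HS_Chol_0) and 105 (HS_Chol_1) against 16.6 in HS_Chol_2 and at most 24.8 in the other diets. HS_Chol_1, which had the highest Slc2a4 value of all libraries (2.57 CPM), also had 17 reads of Adipoq and 14 of Plin1. HS_Chol_0, with the highest sum, had no read of Adipoq, Plin1, Lep or Retn. Most of the sum came from Cfd, the gene of the secreted protease adipsin, at 110.2 and 73.0 CPM in HS_Chol_0 and HS_Chol_1. The part of fat tissue in the HS_Chol values of Slc2a4 was not tested.

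Tmcc2 (r = 0.783), Msl3l2 (0.762), Rgs5 (0.747), Sema3f (0.74) and Armcx2 (0.733) ran most like Slc2a4. Rgs5, a gene of pericytes and stellate cells, stood at 26.0 CPM in NC, 51.5 in HS, 47.3 in HS_Chol, 29.7 in CA and 45.8 in Chol_CA. Of 8 stellate cell markers Rgs5 alone was called in HS and in HS_Chol against NC, where 0.651% and 2.28% of all genes were called. The list medians there were 0.21 and 0.26 on the log2 scale.

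Slc2a10 encodes GLUT10, a carrier of internal membranes whose loss in humans causes arterial tortuosity (chromosome 2, 165503787 to 165519917, plus strand). It had 6 reads over NC, 5 over HS, 4 over HS_Chol, 5 over CA and 15 over Chol_CA, at most 6 in 1 library, and was the member that did not reach the minimum for testing. Its level was 0.444 ± 0.366 CPM in Chol_CA and 0.201 ± 0.222 in NC, with overlapping ranges, and differences between its diets were not tested.

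Counted by comparison, the 6 tested members gave 4 calls in Chol_CA against NC (Slc2a3 and Slc2a4 higher, Slc2a2 and Slc2a8 lower), where 24.3% of all 12595 genes were called, 15% higher and 9.35% lower. Nothing is read from that count, because the family was proposed for Slc2a6 in this contrast. Slc2a3 and, in part, Slc2a4 also entered the test through their Chol_CA libraries. HS_Chol against NC gave 1 call, Slc2a8 lower, where 2.28% of all genes were called (1.71% higher, 0.564% lower). Chol_CA against CA also gave 1 call, Slc2a8 lower, where 21.2% were called (13.4% higher, 7.8% lower). No member was called by edgeR in HS against NC (0.651% of all genes called, 0.214% higher and 0.437% lower), CA against NC (9.83%, 5.22% higher and 4.61% lower), HS_Chol against HS (2.25%, 1.6% higher and 0.651% lower) or the cholesterol interaction (6%, 2.47% higher and 3.53% lower). At an unadjusted edgeR p under 0.05 there were 2, 0, 2 and 0 members in these 4 comparisons. No share of all genes was taken at that threshold, so nothing is read from these counts. DESeq2 called 0 members in each, where it called 1.63%, 12.1%, 3.48% and 8.81% of all genes. With DESeq2 the counts were 5 for Chol_CA against NC (26.3% of all genes), 2 when HS_Chol was set against NC (4.11%) and 2 between Chol_CA and CA (23.6%).

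**Figure D4:**
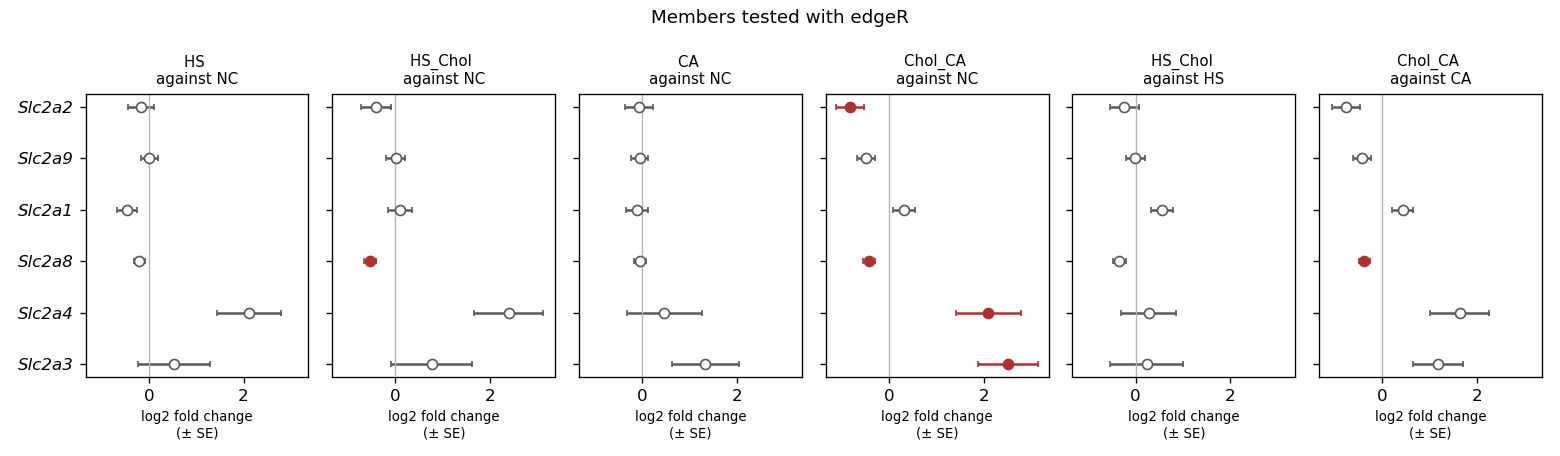
Log2 fold change (horizontal axis, with SE) of the 6 tested members in 6 comparisons, from edgeR. Filled red points passed an adjusted p of 0.05. They are 4 members in Chol_CA against NC (24.3% of all genes called) and Slc2a8 in HS_Chol against NC (2.28%) and Chol_CA against CA (21.2%). Slc2a3, farthest to the right at 2.52, reached the minimum for testing only through Chol_CA libraries. Slc2a4 reached it only through libraries of HS, HS_Chol and Chol_CA.

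Of the other Slc2a genes, Slc2a7 had no read in any library, Slc2a12 had at most 3, and Slc2a5 and Slc2a13 could be tested. Slc2a5, the fructose carrier GLUT5, stood at 8.22 ± 3.06 CPM in NC, 12.6 ± 2.58 in HS, 12.9 ± 2.04 in HS_Chol, 2.52 ± 0.22 in CA and 5.69 ± 1.20 in Chol_CA. Its CA libraries, at 2.23 to 2.70 CPM, lay below all others. The log2 fold change of CA against NC was −1.70 ± 0.24 (adjusted p = 0.000138), a fall, and Slc2a5 was higher in Chol_CA than in CA by 1.18 ± 0.24 (adjusted p = 0.00195).

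Slc2a13, the proton-coupled myo-inositol carrier HMIT, went the other way. Its mean was 0.339 ± 0.217 CPM in NC and 1.83 ± 0.85 in CA, a rise of 2.36 ± 0.56 on the log2 scale (adjusted p = 0.0098), and was lower in Chol_CA than in CA, at 0.565 ± 0.213 CPM (−1.68 ± 0.50, adjusted p = 0.0219). The Slc2a5 change of CA against NC passed in all 15 alternatives, with adjusted p at most 0.00498. Slc2a13 reached the minimum for testing only through CA_1, CA_2 and CA_3, its high diet. It could not be tested when any one of these was left out or with only the diets compared. With no filter on low counts it gave 2.36 against NC (adjusted p = 0.013) and −1.73 for Chol_CA against CA (adjusted p = 0.0287), and the latter did not pass without Chol_CA_1 (adjusted p = 0.0568).

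Once inside the cell, hexoses are phosphorylated by hexokinases. Of 13 genes of hexose phosphorylation and release, 4 rose and 1 fell in Chol_CA against NC, where 15% of all genes rose and 9.35% fell. Their median log2 fold change was −0.16, against 0.00 over all genes. Hk2 went from 0.588 ± 0.335 up to 10.3 ± 4.90 CPM (4.09 ± 0.49 on the log2 scale, adjusted p = 4.68e-06), Hk3, the hexokinase of white blood cells, from 1.29 ± 0.77 to 23.9 ± 16.3 CPM (4.2 ± 0.58, adjusted p = 2.00e-05), and Hk1 by 1.25 ± 0.26 (adjusted p = 0.00126). In CA against NC 2 rose and 3 fell (median 0.20 against 0.01), where 5.22% of all genes rose and 4.61% fell. In HS or HS_Chol against NC none of the 13 was called.

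Of 11 genes of glucose sensing and transporter turnover 1 rose and 3 fell in Chol_CA against NC (15% and 9.35% of all genes), with a median of −0.36 against 0.00 over all genes. Txnip, which encodes an arrestin that removes GLUT1 from the cell surface, fell from 222 ± 95.9 to 74.9 ± 2.97 CPM (−1.57 ± 0.34, adjusted p = 0.0016). Slc2a1 is a known target of the hypoxia factor HIF1, and of 10 tested HIF1 targets 1 rose and 4 fell in the same comparison (median −0.34), against the same 15% and 9.35% of all genes. Vegfa fell by 0.94 ± 0.16 (adjusted p = 0.000147) and Pdk1 by 1.62 ± 0.28 (adjusted p = 0.00018), while the lactate exporter gene Slc16a3 rose by 4.97 ± 1.02 (adjusted p = 0.00106) but could not be tested without Chol_CA_0 or Chol_CA_1, with positive-trend libraries alone or with only the diets compared.

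Of 10 tested genes of urate handling, the pathway of GLUT9, 3 rose and 2 fell in CA against NC (median −0.05), where 9.83% of all genes were called. In Chol_CA against NC 2 rose and 3 fell (median −0.27), where 24.3% were called. Slc22a7, an organic anion carrier, stood at 24.9 ± 6.47 CPM in NC, 64.4 ± 14.4 in HS, 24.7 ± 4.23 in HS_Chol, 5.12 ± 2.02 in CA and 19.3 ± 6.06 in Chol_CA. Its cholesterol interaction was 3.30 ± 0.40 on the log2 scale (adjusted p = 2.48e-05), with a fall when cholesterol joined sucrose (−1.39 ± 0.28, adjusted p = 0.00583) and a rise when it joined cholic acid (1.92 ± 0.28, adjusted p = 0.000128). The fall with sucrose did not pass without HS_Chol_0 or HS_Chol_1 (adjusted p = 0.0608 and 0.0543) or with positive-trend libraries alone (0.108). Of 7 sodium-coupled sugar carriers 3 could be tested. Against NC, Slc5a1 was called higher in CA and in Chol_CA (adjusted p 0.0297 and 0.0187), but not in several alternatives (at most 0.112 and 0.0636). Slc5a2 stood at 1.89 ± 0.34 CPM in HS_Chol, the diet with the most wrong-strand reads, and had no read in HS. It was tested only because of its HS_Chol level, so its call there is not read.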

How the data were processed

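Per the submitters' processing notes, the authors aligned reads with STAR 2.6.1c to mm10, and STAR counted reads per gene. The deposited table holds raw read counts per symbol, and the strand counted and the annotation release are not given in the sources used here. Of 23 columns of values 20 matched a diet, and 3 matched no label and were not used. A further labelled diet, HS_Chol_CA, was not analysed here. Exon lengths and coordinates came from GENCODE M21 (GRCm38), which may not be the counting annotation, and promoters from RefSeq.

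CPM are counts per 1000000 reads of effective library size. The test was edgeR's quasi-likelihood test (version 4.0.16, R 4.3.3) after filterByExpr, which left 12595 genes, with TMM scaling, robust fitting and all 20 libraries in the model, each diet having its own mean. Calls are Benjamini-Hochberg adjusted p under 0.05. Of the members 7 passed the filter, and Slc2a6 was not tested. The length trend is the Spearman correlation of a library's deviation in log2 CPM with exon length, over 11538 genes (91.6%) with a length. Alternatives were DESeq2 1.42.0 and its size factors, no filter, a stricter filter (1 CPM in 3 libraries), fewer diets, the length trend, and each library left out. The procedure was also run on simulated counts, with 200 genes changed in the first diet of each comparison. They had no length trend and far fewer changed genes than were called in Chol_CA against NC, so nothing is read from them here. Named list genes have the 3 smallest adjusted p of a list and comparison, and the 5 genes most like a member were taken without predicted models and pseudogenes. Of 168 list entries in 19 lists, 165 were in the table. Members, lists and tests were chosen with earlier results of these data known.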

Additional observations from a re-analysis of the deposited data

Results flagged for a closer look

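In 35 groups of 4 or 5 libraries, over 9 Slc2a genes, 1 library stood far from the rest of its diet by Dixon's criterion, which chance gives in about 1 of 20 groups. Slc2a3 stood at 0.852 CPM in NC_3, which has a negative length trend, and at 0 to 0.13 CPM in the other NC libraries. The cholesterol interaction of Slc2a5 passed its test by a small margin, at 1.13 ± 0.33 on the log2 scale (edgeR adjusted p = 0.0494): adding cholesterol to cholic acid went with a higher level (5.69 against 2.52 CPM) and adding it to sucrose with a like level (12.9 against 12.6 CPM). Over its alternatives the value ran from 0.99 to 1.25 and the adjusted p from 0.0281 to 0.12.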

How the results depend on the processing

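No paired analysis was possible because the columns of the table could not be matched to the numbered livers of the labels, so no replicate block was fitted. Fewer libraries and another test moved the counts of called members. For HS_Chol against NC the count of 1 went to 2 with DESeq2, to 0 without a filter, with only the diets compared or with libraries of a positive length trend, and to 0 to 1 with 1 library left out. For Chol_CA against NC the count of 4 went to 0 with only the diets compared and to 1 to 5 with 1 library left out. For Chol_CA against CA the count of 1 went to 2 with DESeq2 or the stricter filter, to 0 without a filter or with only the diets compared, to 3 with a positive length trend, and to 0 to 4 with 1 library left out. For CA against NC the count of 0 went to 0 to 1 with 1 library left out. The Slc2a1 change of Chol_CA against NC turned from 0.32 to −0.15 among libraries with a positive length trend. For Chol_CA against NC, Slc2a3 missed the filter in that setting, with only the diets compared, and without Chol_CA_0, Chol_CA_1 or Chol_CA_3, the libraries through which it passes. Slc2a4 also missed the filter with only the diets compared. Over 22 further pairs of a member and a comparison, none called, 43 of 366 alternative values changed sign and 0 passed. The share of all genes called ran from 0.279% to 3.05% in HS against NC, 1.42% to 4.97% in HS_Chol against NC, 4.67% to 23.9% in CA against NC, 14.2% to 29.6% in Chol_CA against NC, 1.44% to 3.48% in HS_Chol against HS, 11.03% to 27.7% in Chol_CA against CA and 3.00% to 11.4% in the interaction. With the longest transcript in place of all exons Slc2a9 moved from 6.57 to 9.27 RPKM in NC and from 4.67 to 6.59 in Chol_CA, where it then stood above Slc2a1 (6.38). Slc2a3, Slc2a4, Slc2a6 outside Chol_CA and Slc2a10 had under 20 reads in every library, which limits their precision.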
